A study of Mus musculus with 12 samples.

Results

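The response of the mouse left ventricle to TAC was estimated once for both genotypes of the study together. TAC commonly stands for transverse aortic constriction, a surgical banding of the aortic arch that makes the left ventricle pump against a higher pressure. All 12 of the 12 libraries of the series were used, and each gene got 1 term for genotype and 1 term for treatment with no interaction between them, so the treatment term compares 6 TAC with 6 NS libraries. Genes with 10 or more counts in at least 3 libraries were tested, which left 15724 of the 49492 rows of the count table.

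The 4 groups hold 3 libraries each: wild-type (WT) mice labelled NS, WT mice labelled TAC, Alox5ko mice labelled NS and Alox5ko mice labelled TAC. The labels leave NS unexplained, and here it names the arm without TAC. Alox5 encodes arachidonate 5-lipoxygenase, which makes leukotrienes from arachidonic acid, and the series' design text speaks of a deficiency of the gene in the heart. The promoter or Cre line behind it, the age of the mice and the time after TAC are not given in the sources used here. Polyadenylated RNA was sequenced from directional libraries, and the counts in each library summed to 20889431 to 27311196, with 21328937 or more in NS and 23820523 or fewer in TAC libraries. Alox5 itself (chr6:116410077-116461178) lay between 9.564 and 13.87 CPM (counts scaled to library size, with TMM factors) in the 6 WT libraries and between 0.9338 and 1.457 CPM in the 6 Alox5ko libraries, so every library matched its genotype label. The treatment term for Alox5 was -0.06 ± 0.122 with an adjusted p of 0.855. Summed levels of gene lists and marker sets are CPM of total counts, without TMM factors. Changes are log2 fold changes of TAC over NS, and the value after ± is the standard error unless SD is written.

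Pressure overload makes ventricular myocytes grow. As background, growing myocytes switch on genes of the fetal heart, among them natriuretic peptides and skeletal actin, they lower genes for burning fatty acids, and the fibroblasts around them lay down extracellular matrix. Contractile and mitochondrial transcripts dominate the RNA of the ventricle, so the tissue is read here as a mixture of cells.

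The promoters of 4 genes are shown first as the 250 bases before the RefSeq start, because these genes rose together and stand for the myocyte side of the response. Nppa encodes atrial natriuretic peptide, Acta1 skeletal muscle actin, Ankrd1 a stretch-responsive ankyrin repeat protein and Xirp2 a protein of the intercalated disc. The windows come from RefSeq, build GRCm38.p6: chr4:148000472-148000721 (plus strand) for Nppa, chr8:123894776-123895025 (minus strand) for Acta1, chr19:36119845-36120094 (minus strand) for Ankrd1 and chr2:67445752-67446001 (plus strand) for Xirp2. Each is written 5′ to 3′ on the strand of the gene, and capitals mark matches to 6 of the motifs searched.
Nppa: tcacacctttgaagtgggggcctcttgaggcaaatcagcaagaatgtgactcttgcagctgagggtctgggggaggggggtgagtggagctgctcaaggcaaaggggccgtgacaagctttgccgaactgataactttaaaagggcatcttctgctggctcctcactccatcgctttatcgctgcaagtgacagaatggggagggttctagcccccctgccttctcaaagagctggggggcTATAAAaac
Acta1: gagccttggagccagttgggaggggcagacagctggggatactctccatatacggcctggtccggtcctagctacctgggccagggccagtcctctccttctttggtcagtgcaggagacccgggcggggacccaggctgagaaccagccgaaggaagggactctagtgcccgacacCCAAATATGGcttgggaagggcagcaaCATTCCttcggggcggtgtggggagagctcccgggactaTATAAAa
Ankrd1: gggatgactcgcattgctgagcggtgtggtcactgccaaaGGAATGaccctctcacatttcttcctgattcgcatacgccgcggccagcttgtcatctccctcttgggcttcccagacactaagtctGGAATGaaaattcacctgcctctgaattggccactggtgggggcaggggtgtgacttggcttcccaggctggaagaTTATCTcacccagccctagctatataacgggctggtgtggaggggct
Xirp2: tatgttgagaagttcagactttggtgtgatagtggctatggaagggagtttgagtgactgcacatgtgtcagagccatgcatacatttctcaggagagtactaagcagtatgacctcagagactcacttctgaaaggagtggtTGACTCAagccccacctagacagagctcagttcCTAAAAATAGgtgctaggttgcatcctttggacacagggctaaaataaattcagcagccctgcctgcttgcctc

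Positions in these windows are counted back from the RefSeq start, with -1 the base before it. The Acta1 window holds a CArG box, the letters that serum response factor is known to read, at -73 to -64, and CATTCC, the letters of TEAD factors, at -46 to -41. Ankrd1 holds CATTCC on the opposite strand at -210 to -205 and at -123 to -118 and AGATAA, the letters of GATA factors, on the opposite strand at -47 to -42. Xirp2 holds TGANTCA, the letters of AP-1, at -107 to -101 and a MEF2 site at -74 to -65. TATAAA lies at -9 to -4 in Nppa and at -7 to -2 in Acta1. For Acta1 the RefSeq start lies 24 bases from the gene start of the count table, and no GENCODE transcript starts there.

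Motifs were searched on both strands in the windows of the 10583 tested genes that have one, among them 322 of the genes that rose after TAC and 248 of those that fell. Matches to different motifs were counted separately where they overlap. CATTCC was present in 10.8% of all windows, in 16.1% of those of genes that rose and in 11.7% of those of genes that fell. TGANTCA was present in 4.13%, 8.07% and 5.65%, a MEF2 site in 1.8%, 3.73% and 2.02%, and a CArG box in 1.13%, 1.86% and 0.806%. AGATAA was present in 5.8%, 5.9% and 7.26%, TATAAA in 6.5%, 8.39% and 4.03%, and GGGCGG in 58%, 54.3% and 53.2%. GCGTGGGCG was present in 0.983%, 0.932% and 0.806%, and TCAAGGTCA in 0.246%, 0.621% and 0%. These shares are descriptions with no test, and a match is a run of letters, not a bound site.

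After TAC, 816 of the 15724 genes passed an adjusted p under 0.05 (5.19%), of which 470 rose (2.99%) and 346 fell (2.2%). Each adjusted p given here is from edgeR's quasi-likelihood test with Benjamini-Hochberg adjustment over all genes tested. Whether the 3 libraries of a group are separate animals is not stated in the labels, and the p-values then reflect only the variation among these libraries, which could be technical. Most changes were small: 107 of the called genes moved by at least 2-fold, 87 of them up and 20 down. The median change was 0.491 (log2) among the genes that rose and -0.349 among those that fell. Protein-coding genes made up 88.1% of the genes that rose and 88.4% of those that fell, against 81.7% of all genes tested. In 420 genes (2.67%) the 6 TAC and 6 NS libraries did not overlap at all, with TAC above in 221 (1.41%) and below in 199 (1.27%), and 331 of the 420 were called.

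**Figure D1:**
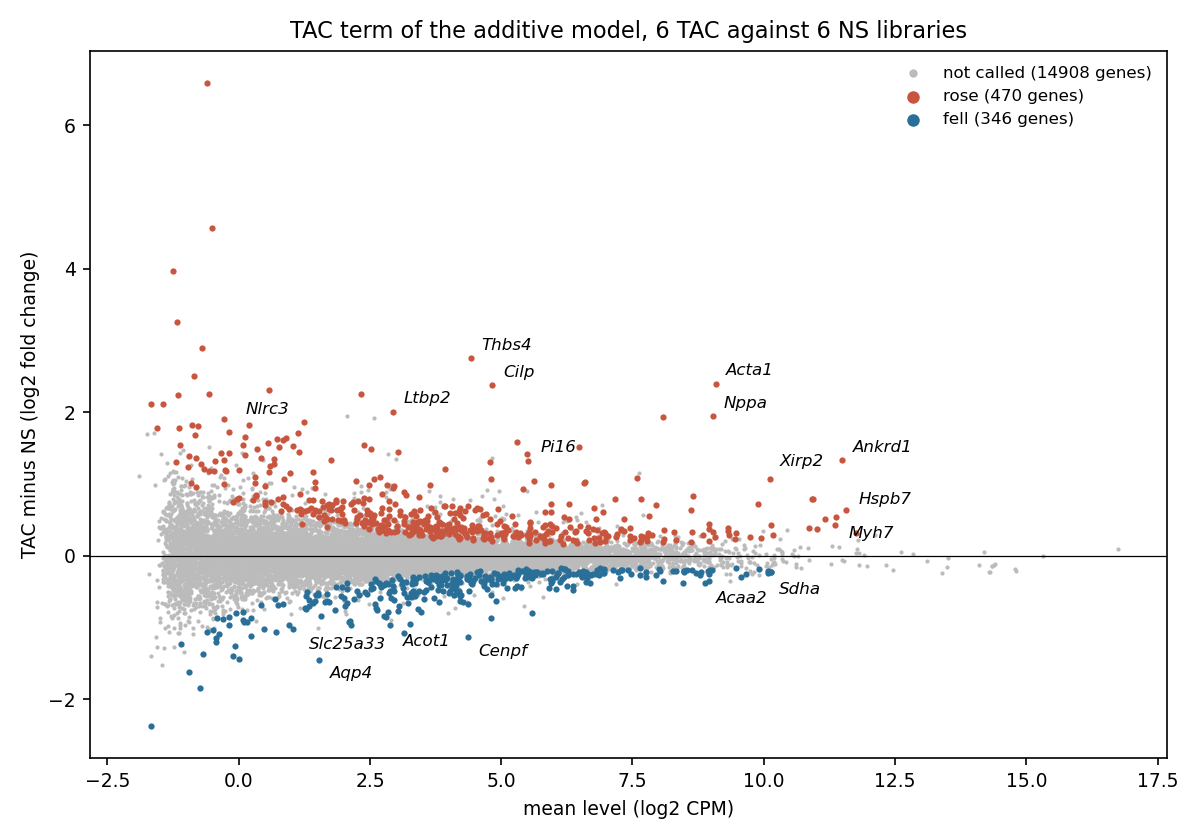
Change after TAC (log2 fold change of the treatment term, 6 TAC against 6 NS libraries) against the mean level of each of the 15724 genes tested (log2 CPM). Coloured points are the 470 genes that rose and the 346 that fell, grey points were not called. Among the labelled points Thbs4, Acta1, Cilp, Ltbp2 and Nppa lie highest, at changes of 1.94 to 2.76, and Aqp4 lies lowest at -1.45. The unlabelled points at the left above 3 are genes of low level.

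The joint fit was more precise than the fit of either genotype. The median standard error of a gene's log2 change was 0.108 with both genotypes together, 0.152 within WT and 0.151 within Alox5ko. Within WT, TAC changed 119 genes (0.757%), and within Alox5ko it changed 211 genes (1.34%), both from 1 model with 4 groups. With each genotype fitted alone the order of these counts was the opposite, at 217 in WT and 161 in Alox5ko. Of the 816 genes called jointly, 95 were also called within WT, 171 within Alox5ko and 36 within both, and 586 (71.8%) were called within neither. Those 586 had a median absolute change of 0.371 (log2), against 0.518 for the others. The joint fit and the fits within a genotype share libraries, so these counts describe precision and are not independent evidence.

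Of the 816 genes, 814 had the same sign of change in both genotypes. Over all 15724 genes tested, 4947 were positive in both genotypes and 4893 negative in both. The 816 were called on the change averaged over the same 2 genotypes, which favours equal signs. Their agreement in sign is therefore not independent evidence of a shared response. The difference between the genotypes' TAC responses was tested by itself. No gene was called for it in the main edgeR fit (0%, lowest adjusted p 0.506), with 840 genes (5.34%) at an unadjusted p under 0.05. DESeq2 called 1 gene, Errfi1 (adjusted p = 0.00682), and limma-voom called 1, Gm15444 (adjusted p = 0.00604). Among the 816 called genes 47 (5.76%) had an unadjusted p under 0.05 for that difference, a share near the 5.34% of all genes. The median standard error of the difference was 0.214 (log2), so differences of the size of most changes here were not detectable with 3 libraries a group.

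**Figure D2:**
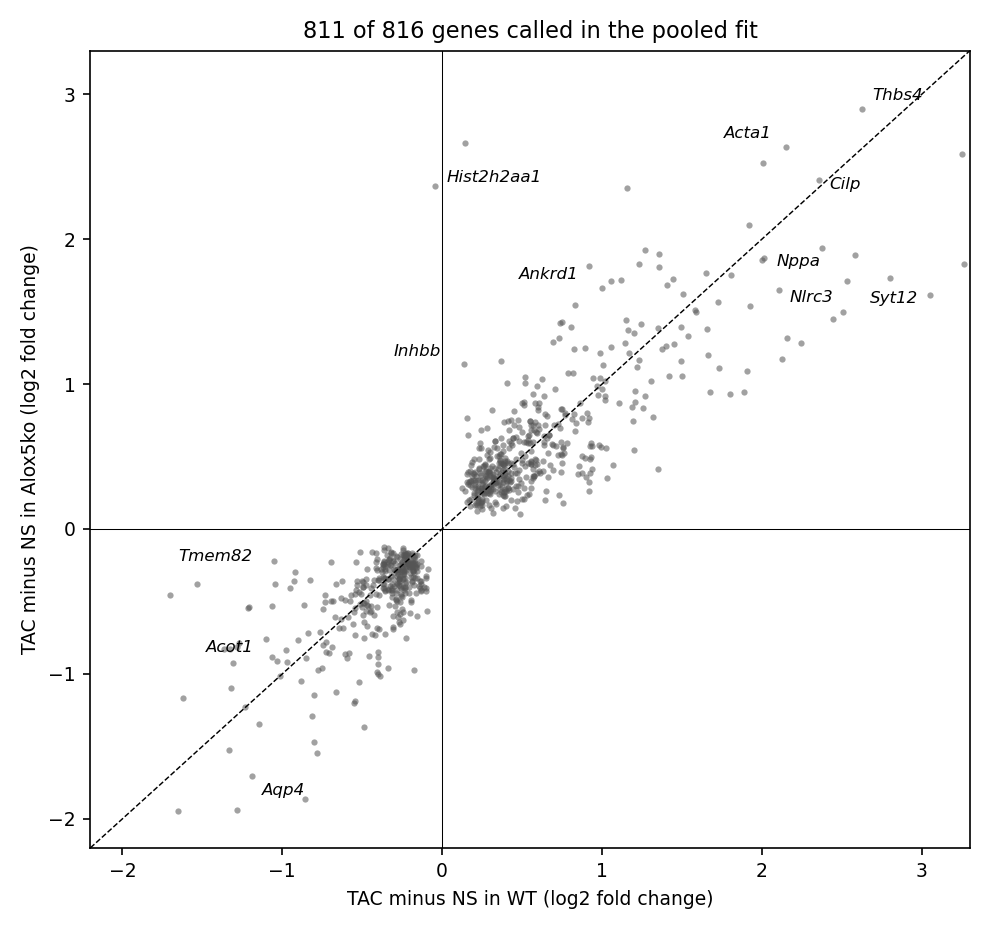
TAC response within Alox5ko (vertical axis, log2 fold change) against the response within WT (horizontal axis) for 811 of the 816 genes called jointly. The dashed line marks equal responses, and the other 5 genes lie outside the axes. Nearly all points lie in the lower left and upper right quadrants, as 814 genes had the same sign, which calling on the joint change favours. Hist2h2aa1 lies at a WT change near 0.

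The 5 called genes with the smallest unadjusted p for a difference between genotypes were Hist2h2aa1, Tmem82, Inhbb, Ppip5k2 and Hist2h2ac. The histone gene Hist2h2aa1 (chr3:96245497-96246082) was at 2.759, 3.063 and 3.635 CPM in the Alox5ko TAC libraries and between 0.3591 and 0.8212 CPM in the NS libraries. In the WT TAC libraries it was at 0.4227, 0.5169 and 0.6004 CPM, inside the NS range, so its joint change of 1.48 ± 0.358 (adjusted p = 0.025) rests on Alox5ko alone. It was called in 6 of the 12 fits that each leave out 1 library, and lost without WT NS 3, any Alox5ko NS library, or Alox5ko TAC 1 or 3. It overlaps Gm20634 on its own strand and is one of a family of near-identical histone genes, so its reads are uncertain. Its difference of 2.41 ± 0.469 had an adjusted p of 0.506. Hist2h2ab, also on chromosome 3, rose by 4.57 ± 0.354 (adjusted p = 5.94e-07). It had counts of 56, 47 and 56 in Alox5ko TAC libraries, 2, 2 and 3 in Alox5ko NS, and 0 or 1 in WT libraries. Hist2h2ac rose by 3.97 ± 0.759 (adjusted p = 0.0057), with counts of 31, 28 and 27 in Alox5ko TAC and 0 to 3 in all other libraries. These joint changes too rest on Alox5ko, at very low levels elsewhere. Both genes passed the count filter only through the 3 Alox5ko TAC libraries, where they are high. Their adjusted p-values are therefore not support for a response common to both genotypes. Inhbb, the beta-B subunit of activins, changed by 0.14 in WT and by 1.14 in Alox5ko (log2), and Tmem82 by -1.05 and -0.22. With all libraries no difference passed the adjusted threshold in the main edgeR fit. Without Alox5ko NS replicate 1 the difference of Tmem82 did (1.02, adjusted p = 0.0451). The joint calls of Tmem82, Inhbb and Ppip5k2 were kept in 3, 3 and 2 of the 12 fits that each leave out 1 library.

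Among the TAC libraries 2 lay at the ends of the range more often than the others. Alox5ko TAC replicate 2 held the lowest of the 6 TAC values in 199 of the 470 genes that rose (42.3%), against 17.4% of all genes tested. WT TAC replicate 1 held the highest value in 176 of them (37.4%, against 20.4% of all genes) and the lowest in 148 of the 346 genes that fell (42.8%, against 17.8%). With both of these libraries left out, an alternative chosen after seeing the data, 590 genes were called, of which 491 were among the 816. Leaving out single libraries gave 454 genes without WT NS replicate 3, 485 without WT TAC replicate 1, 485 without Alox5ko TAC replicate 3 and 889 without Alox5ko TAC replicate 2.

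Among the natriuretic and fetal stress genes, 19 of the 29 tested rose (65.5%) and none fell, with a median change of 0.53 (log2) against 0.001 over all genes tested. Nppa (chr4:148000722-148002079) had a lowest, median and highest level of 149.7, 213.9 and 272.2 CPM in the NS libraries and of 278.4, 797.8 and 1244 CPM in the TAC libraries. All 6 TAC libraries lay above all NS libraries, though Alox5ko TAC replicate 2, at 278.4 CPM, was only just above. The change was 1.94 ± 0.359 (log2, adjusted p = 0.0164), a 3.85-fold rise, with 2.02 in WT and 1.87 in Alox5ko. The exons of Nppa overlap those of Gm13054 on the opposite strand. The sources used here do not say whether counting used strand, so reads of overlapping genes cannot be told apart, here or in the other called genes whose exons overlap another gene (314 in all).

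Acta1 (chr8:123891769-123894751) ran from 102.4 to 312.6 CPM in the NS libraries, with a median of 161.3, and from 277.6 to 1669 CPM in the TAC libraries, with a median of 935.8. WT NS replicate 2 and Alox5ko TAC replicate 2 overlapped, and the other libraries were apart. It rose by 2.40 ± 0.466 (log2, adjusted p = 0.0205). The call was lost, with adjusted p up to 0.0577, when WT NS replicate 3, WT TAC replicate 1 or Alox5ko NS replicate 1 or 2 was left out. Acta1 made up 4.97% ± 1.83 (SD, n = 6) of the summed RPKM of Acta1 and the cardiac actin Actc1 in NS libraries and 20.5% ± 8.06 (n = 6) in TAC libraries. RPKM is scaled by gene length, so the 2 genes can be set side by side.

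Ankrd1 (chr19:36111965-36119844) stood at 1217, 1461 and 2622 CPM (lowest, median, highest) in NS and at 2359, 3980 and 5759 CPM in TAC libraries. Only WT NS replicate 2 reached into the TAC range. It rose by 1.33 ± 0.285 (adjusted p = 0.0302), but the call was lost in 8 of the 12 fits that each leave out 1 library, with adjusted p from 0.0595 to 0.0814: those without WT NS 1 or 3, WT TAC 1, any Alox5ko NS library, or Alox5ko TAC 1 or 3. Xirp2 (chr2:67446002-67526614) stood at 599.6, 697.4 and 882.9 CPM in NS and at 1099, 1397 and 2011 CPM in TAC libraries, with no overlap. It rose by 1.07 ± 0.162 (adjusted p = 0.00522) and was called in all 12 such fits. Nppb, which encodes brain natriuretic peptide, ran from 78.87 to 248.1 CPM in NS and from 165.5 to 354.8 CPM in TAC libraries, and its change of 1.15 ± 0.319 was not called (adjusted p = 0.0783).

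**Figure D3:**
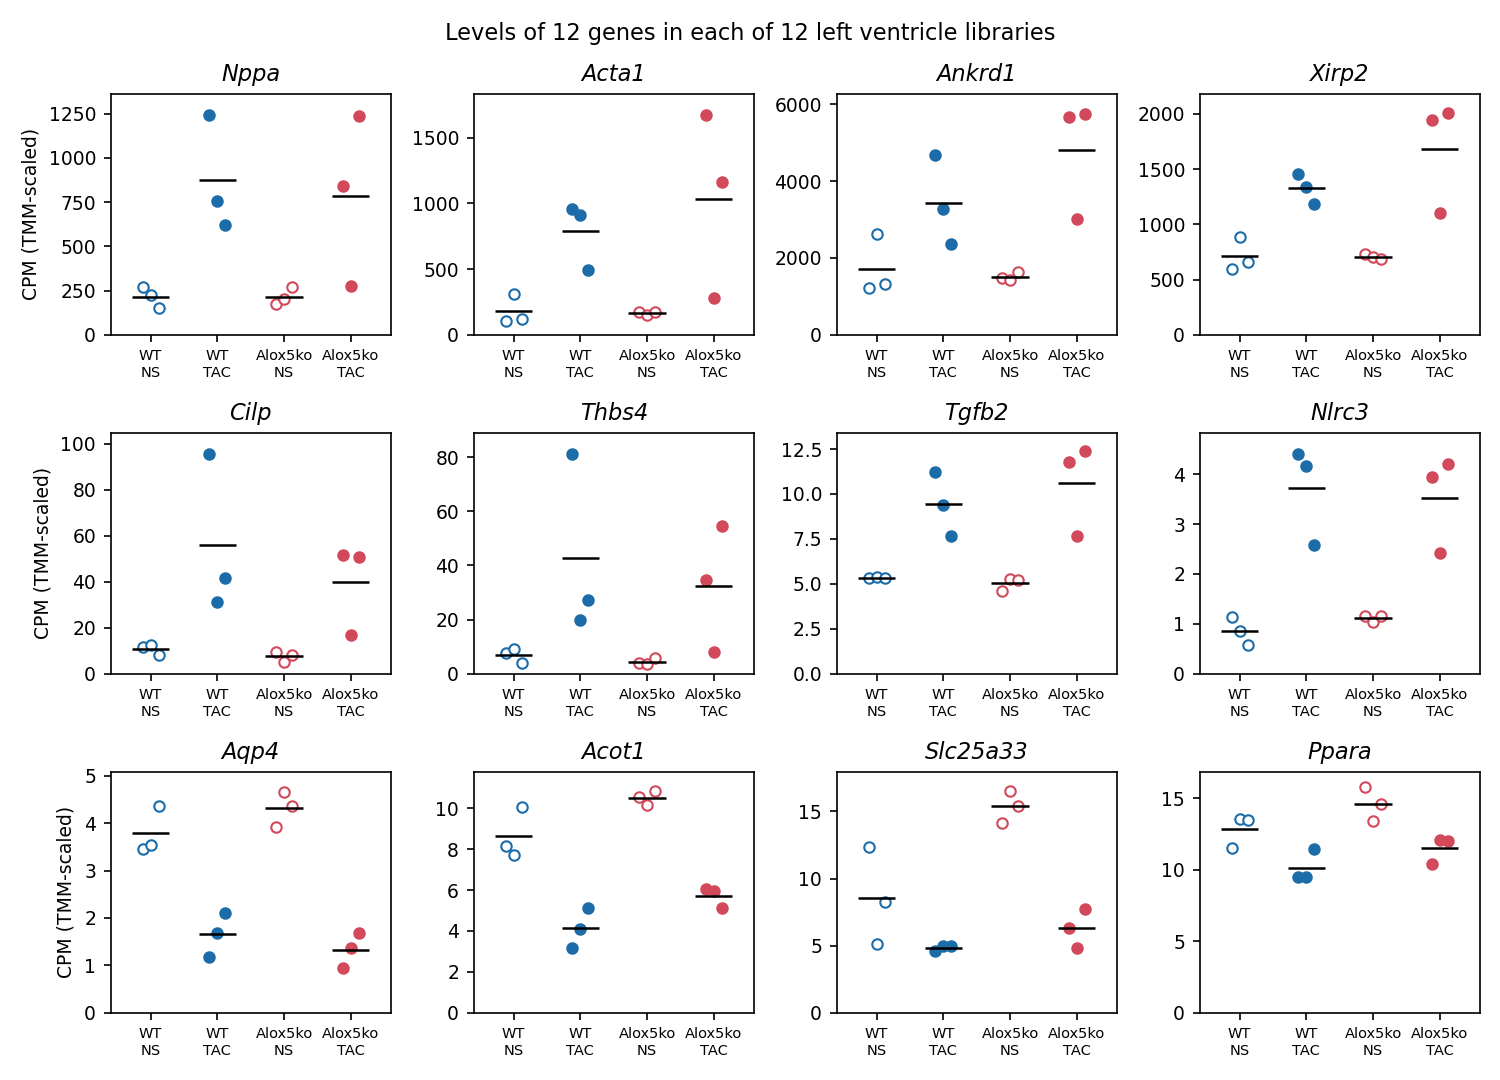
Levels (CPM with TMM scaling) of 12 genes in each of the 12 libraries. Open circles are NS and filled circles TAC libraries, blue is WT and red Alox5ko, and a bar marks the mean of 3 libraries. In Nppa, Xirp2, Cilp, Tgfb2 and Nlrc3 every TAC library lies above every NS library, and in Aqp4 and Acot1 every TAC library lies below. One red TAC point, Alox5ko TAC replicate 2, is near the NS values in Nppa, Acta1 and Thbs4.

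Smaller rises in this list were steadier. Hspb7, a small heat shock protein of muscle (chr4:141420779-141425311), stood between 2280 and 2455 CPM in NS and between 2893 and 4218 CPM in TAC libraries. It rose by 0.64 ± 0.0694 (adjusted p = 5.21e-05), it was called within each genotype as well, and no NS library reached the TAC range. Desmin (Des), the intermediate filament of muscle, rose by 0.51 ± 0.0791, Nrap by 0.72 ± 0.0924 and Ankrd23 by 0.79 ± 0.133, all with no overlap of the 6 and 6 libraries. Ankrd23 shares exon bases with Gm42417 on its own strand, so its reads may be split.

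Myh7, the slow myosin heavy chain, ran from 1560 to 2661 CPM in NS and from 2490 to 3804 CPM in TAC libraries. It rose by 0.53 ± 0.13 (adjusted p = 0.0392), with the call lost in 8 of the 12 fits that leave out 1 library (adjusted p up to 0.0872; kept without WT TAC 2, Alox5ko NS 2 or 3 or Alox5ko TAC 2). Of the summed RPKM of Myh6 and Myh7, Myh7 made up 1.49% ± 0.137 (SD, n = 6) in NS and 2.01% ± 0.302 (n = 6) in TAC libraries, so the fast chain Myh6 remained by far the more abundant. Myh6 itself changed by 0.10 ± 0.0639 (adjusted p = 0.434). Over the whole list, 10 of the 19 members that rose had no overlap between the arms, as had 187 of all 470 genes that rose. Leaving out single libraries gave 9 called members (without WT NS replicate 1) to 18, and leaving out WT TAC 1 with Alox5ko TAC 2 gave 14.

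The markers of cardiomyocytes gave no call among 8 genes. Their summed level ran from 146400 to 180000 CPM in NS and from 172100 to 182500 CPM in TAC libraries, so these overlapped. In bulk tissue a change in the share of a cell type and a change in RNA per cell cannot be told apart.

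Among sarcomere, Z-disc and M-band genes 8 of 33 tested rose and 1 fell (27.3%), at a median of 0.12 (log2), with 7 to 12 calls when single libraries were left out. Actn2, the alpha-actinin of the Z-disc, rose by 0.42 ± 0.0721 (adjusted p = 0.0019) from 1987 to 2391 CPM in NS to 2446 to 3375 CPM in TAC libraries. Mybpc3, cardiac myosin-binding protein C, rose by 0.32 ± 0.0717, Myom1 of the M-band by 0.37 ± 0.0677 and myotilin (Myot) by 0.94 ± 0.116. Actn2 and Myot had no overlap between the arms, while Mybpc3 and Myom1 overlapped in Alox5ko TAC replicate 2. The member that fell was the nebulin-related Nebl, by 0.35 (± 0.0838, adjusted p = 0.0212). Among microtubule and cytoskeletal genes 4 of 30 rose (13.3%), among them Map1a by 0.60 ± 0.101 and the intermediate filament synemin (Synm) by 0.53 ± 0.0998.

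Of 28 calcium handling genes 1 was called (3.57%), a share near the 5.19% of all genes tested. Calsequestrin 2 (Casq2) rose by 0.24 ± 0.0616 (adjusted p = 0.0299), with the call lost without WT NS 1 or 3, WT TAC 1 or 3, Alox5ko NS 1 or 2, or Alox5ko TAC 1 or 3. The calcium pump gene Atp2a2 changed by -0.19 ± 0.0701 (adjusted p = 0.12) and phospholamban (Pln) by -0.22 ± 0.0644 (adjusted p = 0.0549), neither of which passed. Among ion channel genes 2 of 34 rose and 4 fell (17.6%, against 5.19% of all genes). Kcnd2, a channel of the transient outward potassium current, fell by 0.50 on the log2 scale (± 0.113, adjusted p = 0.0149), from a median of 11.56 CPM in NS to 7.441 CPM in TAC libraries, with overlap. Kcnj3 fell by 0.48 (± 0.112) and Kcnj12 by 0.39 (± 0.0984), and the pacemaker channel gene Hcn2 rose by 0.39 ± 0.106. Kcnd2 was called in all 12 fits that leave out 1 library, but Kcnj12 in 6, Kcnj3 in 5 and Hcn2 in 3. For the ion channel list the number of calls ranged from 1, without Alox5ko TAC replicate 1, to 9.

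Among adrenergic and renin-angiotensin genes 1 of 32 rose and 1 fell (6.25%), again near the 5.19% of all genes. Adra1b, an alpha-1 adrenergic receptor, ran from 6.916 to 10.63 CPM in NS and from 4.975 to 6.733 CPM in TAC libraries, all 6 TAC libraries being lower. It fell by 0.58 on the log2 scale (± 0.112, adjusted p = 0.00464). Ace, which makes angiotensin II, rose by 0.46 ± 0.102 (adjusted p = 0.017), with 0.24 in WT and 0.68 in Alox5ko. Its call was lost without Alox5ko NS replicate 3 (adjusted p = 0.0591). Rgs2, which damps Gq-coupled receptors and is outside this list, fell by 0.87 (± 0.212, adjusted p = 0.0467), from 23.52 to 42.73 CPM in NS to 13.86 to 25.3 CPM in TAC libraries. That call was kept in 2 of the 12 fits that leave out 1 library, those without Alox5ko NS replicate 3 or Alox5ko TAC replicate 1.

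Matricellular and fibrosis genes were the second list with many calls: 13 of 35 rose and 1 fell (40%), at a median of 0.61 (log2). Thbs4 (chr13:92751590-92794818), a thrombospondin of injured heart and tendon, was at 3.505, 4.808 and 9.25 CPM (lowest, median, highest) in NS and 7.863, 30.92 and 80.96 CPM in TAC libraries. Alox5ko TAC replicate 2 was the only TAC library inside the NS range. The change was 2.76 ± 0.547 (adjusted p = 0.0224), a 6.76-fold rise. The call was lost in 5 of 12 fits, without WT NS 1 or 3, WT TAC 1 or Alox5ko NS 1 or 2 (adjusted p up to 0.0614).

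Cilp (chr9:65265180-65280605), a matrix protein of cartilage and of activated cardiac fibroblasts, stood at 5.071, 8.838 and 12.62 CPM in NS and at 17.01, 46.17 and 95.29 CPM in TAC libraries. No library overlapped, and the rise of 2.38 ± 0.383 (adjusted p = 0.00938) was called in all 12 fits. Ltbp2 (chr12:84783212-84876532), a binding protein of the microfibrils, rose 4.01-fold (standard error 0.369 on the log2 scale) from 1.753 to 4.495 CPM to 4.846 to 22.92 CPM, again with no overlap and called in all 12 fits. Its exons overlap D030025P21Rik on the opposite strand. Spp1, which encodes osteopontin, rose by 2.25 ± 0.457 from a low level, with medians of 0.2027 and 0.6956 CPM. It passed the count filter only through TAC libraries, so the filter favoured a rise.

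Periostin (Postn) ran from 14.13 to 30.17 CPM in NS and from 27.15 to 111.7 CPM in TAC libraries and rose by 1.58 ± 0.371 (adjusted p = 0.0444). WT NS replicate 1 lay above Alox5ko TAC replicate 2, and the call was kept in 3 of the 12 fits (without WT TAC 2 or 3 or Alox5ko TAC 2). Connective tissue growth factor (Ctgf) rose by 1.02 ± 0.244 with no overlap between the arms, and its call was kept in 4 fits (without WT NS 2, WT TAC 2 or 3 or Alox5ko TAC 2). Fibronectin (Fn1) rose by 0.61 ± 0.113 and fibulin 2 (Fbln2) by 0.61 ± 0.0926, both in all 12 fits. Osteoglycin (Ogn) fell by 0.50 (± 0.0994), the only member that fell. The list gave 7 calls without WT NS replicate 3, up to 17 without other single libraries and 11 without WT TAC 1 and Alox5ko TAC 2.

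Of 25 collagen genes tested, 4 rose and 1 fell (20%), at a median of 0.25 (log2). The count ran from 2, without WT NS 1 or 3 or Alox5ko NS 1, to 8, without WT TAC 2. Col12a1 rose by 1.52 ± 0.314 and Col14a1 by 0.44 ± 0.0972, both collagens that sit on fibrils, and both held in all 12 fits. Col8a1 rose by 1.21 ± 0.273, from 6.937 to 12.06 CPM to 12.16 to 40.53 CPM, and Col8a2 by 1.36 ± 0.389, but their calls were kept in 4 and 3 of the 12 fits, and each was lost without any one WT NS library. Col6a6 fell by 0.95 (± 0.21, adjusted p = 0.0268), in 6 of the 12 fits, with all 6 TAC libraries lower.

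The main fibrillar collagens did not pass: Col1a1 changed by 0.48 ± 0.171 (adjusted p = 0.159) and Col3a1 by 0.18 ± 0.153 (adjusted p = 0.586). Col1a1 made up 33.5% ± 2.18 (SD, n = 6) of the summed RPKM of both genes in NS and 38.3% ± 1.65 (n = 6) in TAC libraries. Among crosslinking and remodelling enzymes 4 of 35 rose and 1 fell (14.3%), with 3 calls without WT NS 3, Alox5ko NS 1 or 2 or Alox5ko TAC 3, and 10 without WT TAC 2. The protease inhibitor Timp1 rose by 1.51 ± 0.376 (in 4 of 12 fits) and the protease Adamts8 by 1.17 ± 0.252 (in all 12), and the serine protease Htra1 fell by 0.32 (± 0.069).

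**Figure D4:**
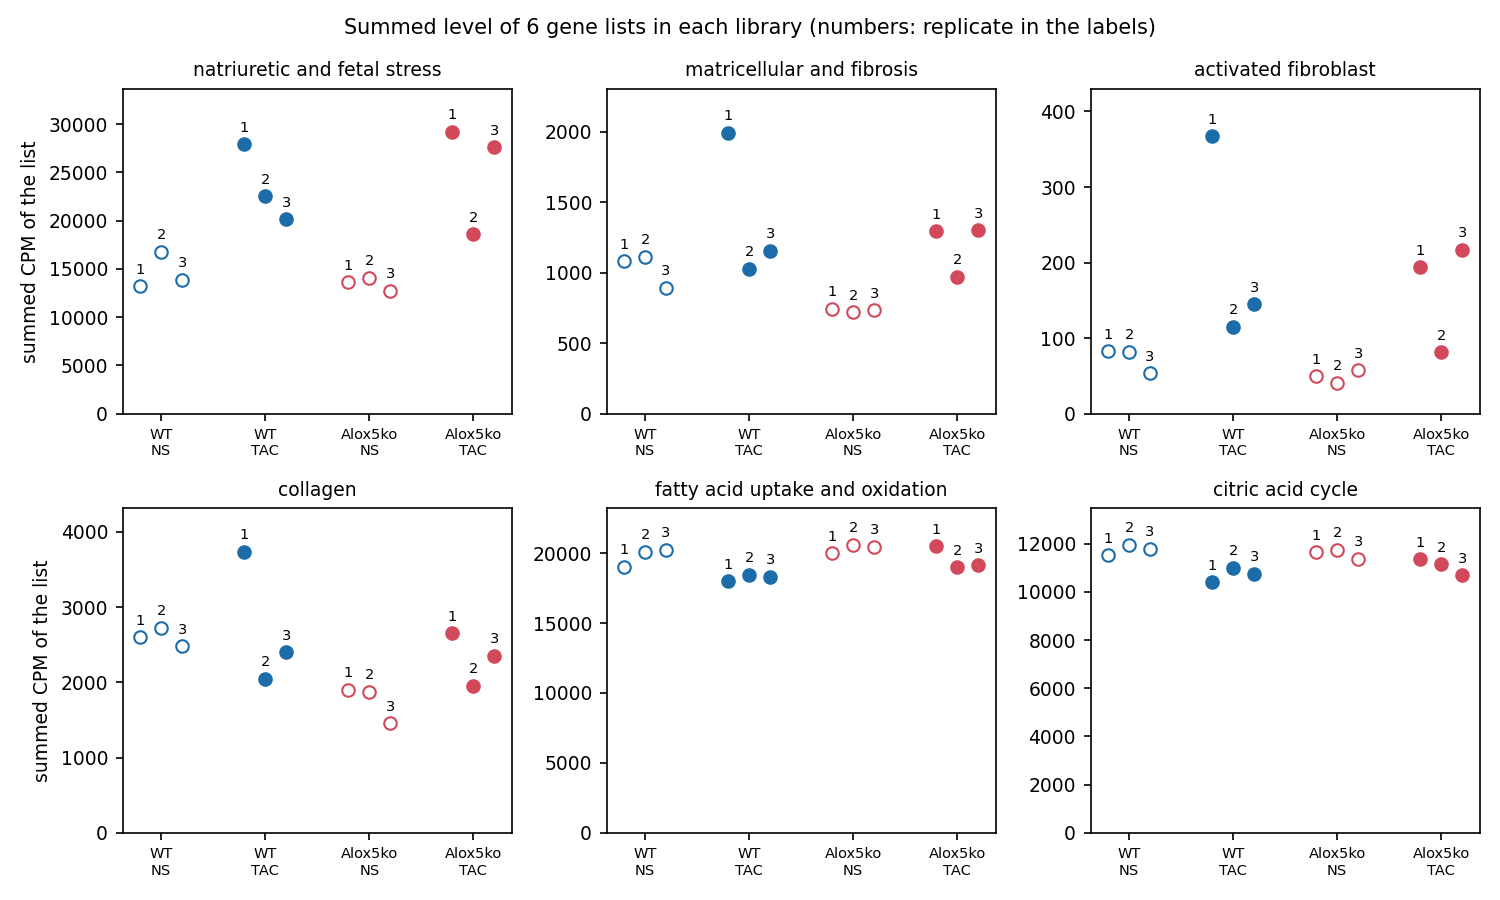
Summed level (CPM of total counts, without TMM factors, vertical axis from 0) of 6 gene lists in each library, with the replicate number of the labels above each point. Open circles are NS and filled circles TAC libraries, blue is WT and red Alox5ko. The natriuretic and fetal stress list runs from 12740 to 16770 in NS and from 18610 to 29230 in TAC libraries without overlap, and WT TAC replicate 1 is highest in the 3 matrix and fibroblast panels.

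Of 7 tested markers of activated fibroblasts 3 rose (42.9%, against 5.19% of all genes tested), Postn, Cilp and Thbs4. These are matricellular members too, so they add no separate evidence. The other 4 were not called, among them Comp (adjusted p = 0.0614) and Meox1, though all 7 had positive changes. The summed level of the marker set ran from 40.42 to 82.24 CPM in NS and from 80.89 to 367.4 CPM in TAC libraries. Among 8 markers of fibroblasts at large 2 rose (25%), Lum (kept in 4 of 12 fits) and Pi16. The sum of the 8 ran from 555.5 to 762 CPM in NS and from 571.8 to 921.4 CPM in TAC libraries, with wide overlap. The part of fibroblast number in the matrix result was not tested. Pi16 (chr17:29318877-29329413), a peptidase inhibitor of resting fibroblasts, went from 23.57 to 28.99 CPM in NS to 50.6 to 94.11 CPM in TAC libraries and rose by 1.33 ± 0.14 (adjusted p = 0.000515), without overlap and within each genotype.

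Tendon-like genes, a list that shares Cilp and Thbs4, had 4 of 12 rise (33.3%) and a median of 1.42 (log2), with all 12 members positive in both genotypes. Cpxm2 rose by 1.31 ± 0.155 and Angptl7 by 1.54 ± 0.344 (the latter in 5 of 12 fits), while Comp, at 1.91 ± 0.496, was not called (adjusted p = 0.0614). The list gave 2 calls without WT NS 1 or 3 or Alox5ko NS 1 or 2, and up to 6, without Alox5ko TAC 2. This list had been chosen with earlier results of these libraries known, so its direction is not independent evidence.

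Of the TGF-beta, activin and BMP genes, 10 of 46 rose and 1 fell (23.9%), at a median of 0.15 (log2). Among the ligands, Tgfb2 (chr1:186622792-186705989) stood between 4.596 and 5.36 CPM in the 6 NS libraries and at 7.66, 10.31 and 12.39 CPM (lowest, median, highest) in the TAC libraries. The arms did not overlap and the NS libraries were close together. It rose by 0.95 ± 0.12 (adjusted p = 0.000242), by 0.82 in WT and 1.08 in Alox5ko. Tgfb1 changed by 0.14 ± 0.0955 (adjusted p = 0.472).

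Gdf6, a ligand of the BMP family, rose by 1.33 ± 0.291 from medians of 0.3065 to 0.9724 CPM. Of the extracellular and membrane inhibitors, follistatin-like Fstl3, which binds activins, rose by 1.17 ± 0.204 and the decoy receptor Bambi by 0.76 ± 0.158, both in all 12 fits. Ltbp3, which holds latent TGF-beta in the matrix, rose by 0.35 ± 0.0726, and Pmepa1, a target and inhibitor of the pathway, by 0.32 ± 0.0714. Inhbb rose by 0.64 ± 0.177 jointly, but its call was kept in 3 of 12 fits, and its WT change was 0.14. The member that fell was the ligand Bmp7, by 0.50 (± 0.13, adjusted p = 0.0298). Single libraries left out gave 6 to 10 calls in this list, and 8 remained without WT TAC 1 and Alox5ko TAC 2.

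Among growth factor and insulin-like growth factor (IGF) genes 4 of 41 rose and 3 fell (17.1%), with 5 to 11 calls when single libraries were left out, the most without WT TAC 3. Igfbp5 (chr1:72857932-72874884), an IGF-binding protein, went from 72.41 to 95.01 CPM in NS to 118.3 to 149.8 CPM in TAC libraries, with no overlap. It rose by 0.67 ± 0.0783 (adjusted p = 0.00015) and Igfbp6 by 0.66 ± 0.13. Vegfa rose by 0.26 ± 0.0564, and Fgf1 fell by 0.37 (± 0.0591, adjusted p = 0.00109). Of the Wnt pathway genes 3 of 32 rose and 1 fell (12.5%): the receptor Fzd2 by 0.78 ± 0.148, the inhibitor Nkd2 by 0.78 ± 0.175, Dact2 by 1.33 ± 0.374 and, downward, Dixdc1 by 0.92 (± 0.236). The calls of Dact2 and Dixdc1 were each kept in 3 of the 12 fits, and the Wnt list ranged from 2 calls to 7, the most without Alox5ko TAC 1.

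Of 40 genes tested for taking up and oxidising fatty acids 12 fell (30%), 28 were not called and none rose, at a median of -0.20 (log2), and 35 of the 40 were negative in both genotypes. Acot1 (chr12:84009502-84017670), a cytosolic thioesterase that releases fatty acids from coenzyme A, had the largest fall. It stood at 7.694, 10.1 and 10.85 CPM in NS and at 3.146, 5.12 and 6.028 CPM in TAC libraries. No library overlapped, and it fell by 0.97 (± 0.107, adjusted p = 5.78e-05). Acot1 and Acot2 are close paralogs, so reads may be shared between them, and Acot2 fell by 0.29 (± 0.0607).

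Of the enzymes of beta-oxidation, Acaa2 fell by 0.37 (± 0.0529), Ech1 by 0.38 (± 0.0605) and Decr1 by 0.26 (± 0.0478), each in all 12 fits. Acaa2 ran from 481.2 to 566.5 CPM in NS and from 372.2 to 438 CPM in TAC libraries, which is a fall of 22.8%. Hadhb, a subunit of the trifunctional protein, and the medium-chain dehydrogenase Acadm each fell by 0.22 on the log2 scale (± 0.0504 and ± 0.051), and the call of Acadm was lost without WT TAC 1 or Alox5ko TAC 3. Cpt1b, the muscle carnitine palmitoyltransferase that admits fatty acids to the mitochondrion, changed by 0.03 ± 0.0518 (adjusted p = 0.838). The list gave 9 to 15 calls with single libraries left out and 11 without WT TAC 1 and Alox5ko TAC 2.

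Of 22 regulators of oxidative metabolism 2 fell (9.09%). Ppara (chr15:85734983-85802819), the nuclear receptor that drives fatty acid oxidation, ran from 11.54 to 15.77 CPM in NS and from 9.478 to 12.07 CPM in TAC libraries. Only WT NS replicate 1 fell within the TAC range, and the change was -0.34 ± 0.0781 (adjusted p = 0.0142), the same -0.34 in each genotype. It was called within neither genotype alone (adjusted p = 0.198 in WT and 0.141 in Alox5ko). Klf15, a regulator of lipid and amino acid metabolism in the heart, fell by 0.46 (± 0.0841, adjusted p = 0.00312). Ppargc1a changed by -0.40 ± 0.149 (adjusted p = 0.171). The Kruppel-like factor Klf9, outside the list, fell by 0.43 (± 0.0568, adjusted p = 0.000381), from 42.66 to 55.89 CPM to 32.64 to 39.59 CPM.

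Ketone and branched-chain amino acid catabolism had the highest share of calls among the metabolic lists, with 11 of 23 falling and 1 rising (52.2% called) and 22 negative in both genotypes. The branched-chain dehydrogenase subunit Dbt (chr3:116513070-116549981) went from 35.46 to 39.66 CPM in NS to 25.27 to 31.38 CPM in TAC libraries. It fell by 0.38 (± 0.064, adjusted p = 0.00178), with no overlap. Ppm1k, the phosphatase that activates that dehydrogenase, fell by 0.43 (± 0.0919), Mut by 0.33 (± 0.0539) and Ivd by 0.31 (± 0.0547). The list's median was -0.19 (log2).

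The member that rose was Bdh1 (chr16:31422280-31458901), the mitochondrial enzyme that interconverts the ketone bodies. Its NS libraries ranged from 34.07 to 88.84 CPM, with a median of 66.97, and its TAC libraries lay close together between 119.1 and 136.9 CPM. The arms did not overlap, and Bdh1 rose by 1.01 ± 0.186 (adjusted p = 0.0149), called in all 12 fits. Its exons overlap Gm15743 on the opposite strand.

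Of 23 citric acid cycle genes 9 fell (39.1%) and none rose, at a median of -0.15 (log2). None of them was called within WT or within Alox5ko. Sucla2, the ATP-forming subunit of succinyl-CoA synthetase (chr14:73525319-73596142), ran from 793.3 to 967.3 CPM in NS and from 606.1 to 714 CPM in TAC libraries and fell by 0.29 (± 0.056, adjusted p = 0.00472). Citrate synthase (Cs) fell by 0.20 (± 0.0484), fumarase (Fh1) by 0.22 (± 0.0529) and Dlat of the pyruvate dehydrogenase complex by 0.23 (± 0.0501). In 8 of the 9 the arms did not overlap, as in 144 of all 346 genes that fell. The calls of Cs and Fh1 were lost without WT NS 3 or WT TAC 1, and that of Fh1 without Alox5ko TAC 3 too. Over the list, 3 to 8 were made with single libraries left out, the fewest without WT NS replicate 3, and 2 without WT TAC 1 and Alox5ko TAC 2, while the list's median stayed between -0.17 and -0.13 in the fits leaving out 1 library.

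Nuclear genes of oxidative phosphorylation showed 6 falls among 54 (11.1%), no rise and a median of -0.13 (log2), with 49 of the 54 negative in both genotypes. Ndufs1 of complex I fell by 0.24 (± 0.0505), Sdha and Sdhc of complex II by 0.24 (± 0.0506) and 0.20 (± 0.0461), and the complex IV subunit Cox7a1 by 0.25 (± 0.0621, lost without WT NS 2, WT TAC 1 or Alox5ko TAC 3). Again none was called within a genotype alone, and without WT TAC 1 and Alox5ko TAC 2 there were 3 calls. None of the 13 mitochondrially encoded genes was called (0%), at a median of -0.12 (log2), of -0.002 in WT and -0.26 in Alox5ko, and 3 of the 13 were called within Alox5ko.

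**Figure D5:**
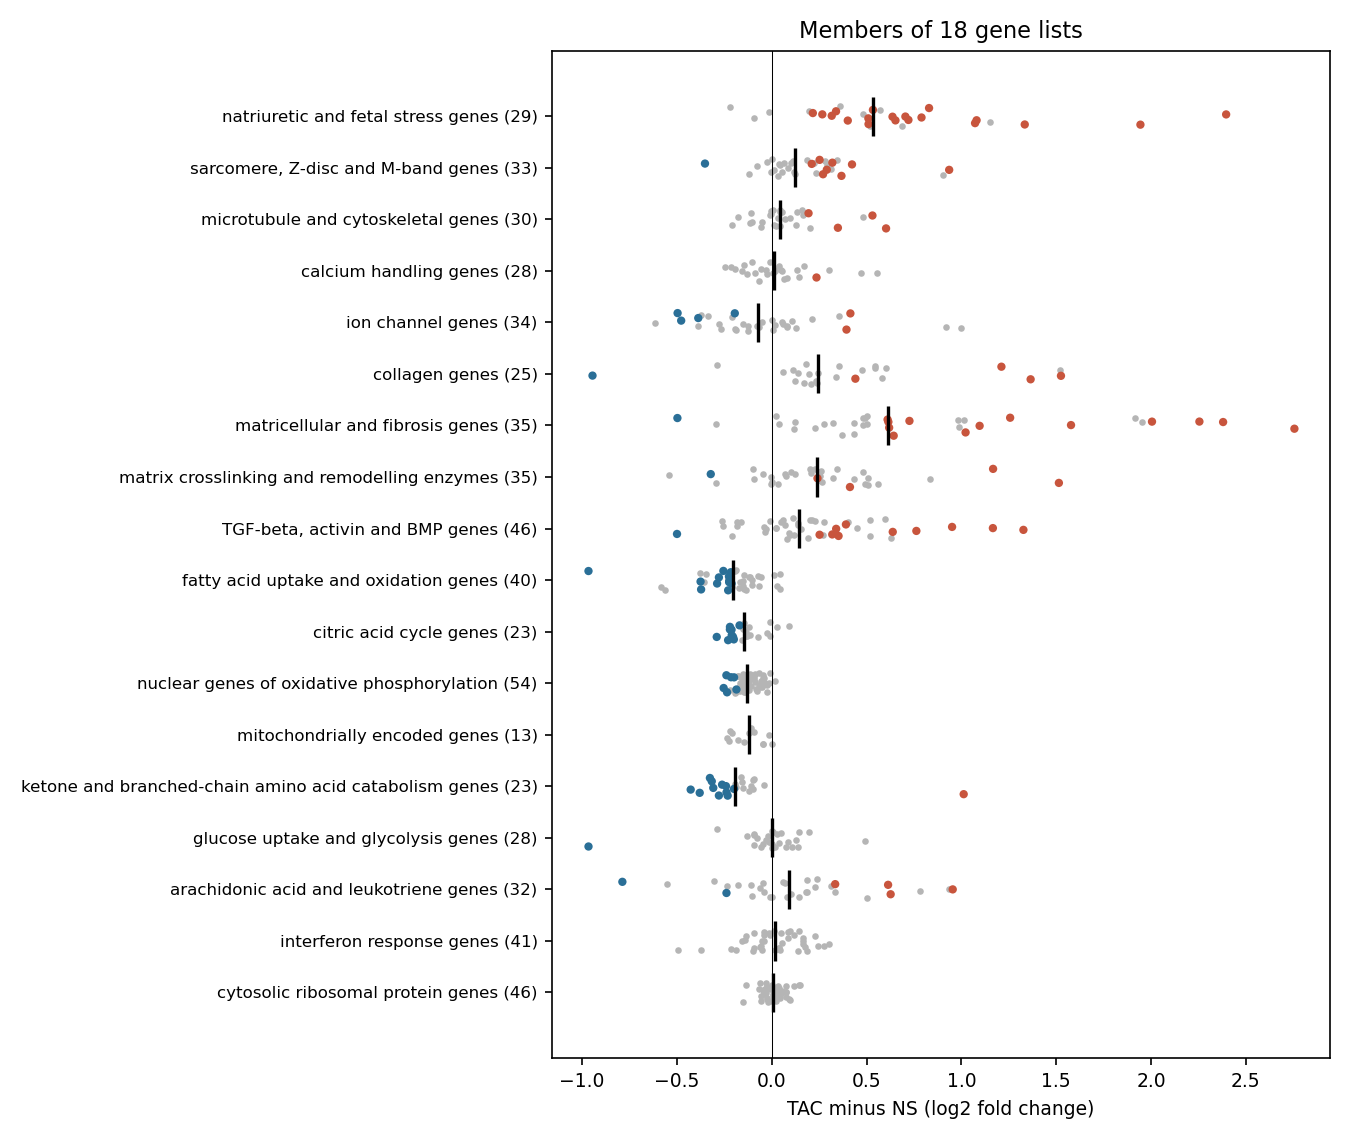
Change after TAC (log2 fold change, horizontal axis) of every tested member of 18 gene lists, with the number tested in brackets. Red points rose, blue points fell, grey points were not called, and a black bar marks the list's median. The natriuretic and fetal stress list and the matricellular list lie to the right at medians of 0.53 and 0.61, and the mitochondrial lists lie slightly to the left.

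Mitochondrially encoded transcripts made up 18.4% ± 1.68 (SD, n = 6) of counts in NS and 16.3% ± 1.01 (n = 6) in TAC libraries. That difference of -2.09 percentage points had a two-sided exact permutation p of 0.02 over 400 regroupings within genotype, where 0.005 is the smallest p possible. In WT the shares overlapped, at 18.1%, 16.5% and 17.4% in NS and 15.7%, 17% and 17.3% in TAC libraries. In Alox5ko they were apart, at 18.7%, 18.2% and 21.4% in NS and 14.6%, 16.8% and 16.2% in TAC libraries. The joint difference thus came mostly from Alox5ko. Leaving these genes out before scaling gave 813 called genes, 780 of them among the 816. The glycolysis list gave 1 call among 28 (3.57%), near the 5.19% of all genes tested: Pfkfb1 fell by 0.97 (± 0.249, adjusted p = 0.0309), kept in 4 of 12 fits. The glycolysis genes Hk1 and Pfkp are not in the list and were called upward. Hk1 rose by 0.22 ± 0.0595 (adjusted p = 0.0395), kept in 3 of 12 fits, and Pfkp rose 1.32-fold, kept in 8. The glucose carriers Slc2a1 and Slc2a4 changed by 0.13 ± 0.133 and -0.06 ± 0.0524, neither of which passed.

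Aquaporin and carrier genes had 7 falls and 2 rises among 22 (40.9%), among them 2 of the largest falls named here. Aqp4, the water channel of muscle and brain membranes, stood at 3.453, 4.139 and 4.661 CPM in NS and at 0.9339, 1.522 and 2.115 CPM in TAC libraries. No library overlapped in either genotype, and it fell by 1.45 (± 0.164, adjusted p = 6.68e-05), which leaves 0.367 of the NS level. Slc25a33, a mitochondrial carrier of pyrimidine nucleotides (chr4:149744036-149774277), fell by 1.07 (± 0.189, adjusted p = 0.00747). Its NS libraries differed by genotype, with 5.143, 8.215 and 12.36 CPM in WT and 14.16, 15.43 and 16.52 CPM in Alox5ko, and its TAC libraries ran from 4.602 to 7.749 CPM.

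Immune genes added few calls. Nlrc3 (chr16:3945007-3976632), a NOD-like receptor known as a brake on inflammatory signalling, was at 0.5836, 1.09 and 1.158 CPM (lowest, median, highest) in NS and 2.423, 4.054 and 4.414 CPM in TAC libraries. All TAC libraries were above all NS libraries in both genotypes, and it rose by 1.86 ± 0.194 (adjusted p = 3.2e-05), by 2.11 in WT and 1.65 in Alox5ko. It was the only call among 15 genes of its list (6.67%), a share near the 5.19% of all genes tested.

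Complement factor C4b rose by 1.44 ± 0.195 (adjusted p = 0.00153), from 3.053 to 4.927 CPM to 7.519 to 15.54 CPM without overlap, one of 2 rises and 1 fall among 22 complement genes (13.6%). The complement list gave 2 calls without WT NS 3, Alox5ko NS 2 or Alox5ko TAC 3, 6 without WT TAC 3 and 9 without Alox5ko TAC 1. Cd59a, a complement inhibitor of the cell surface, was the fall, by 0.37 (± 0.0764). None of 20 chemokine and cytokine genes and none of 41 interferon response genes was called (0% in both lists). Markers of macrophages gave 0 calls among 8, with a summed level of 70.85 to 88.64 CPM in NS and of 64.11 to 103.5 CPM in TAC libraries. Of the 2 neutrophil markers tested none was called, and Ly6g had no count in any library.

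Of 32 arachidonic acid and leukotriene genes tested, the pathway of the deleted gene, 4 rose and 2 fell (18.8%), and 3 were called without WT TAC 1 and Alox5ko TAC 2. The phospholipases that free arachidonic acid went apart: Pla2g4a (chr1:149829618-149961290) rose by 0.63 ± 0.138 (adjusted p = 0.0114), from 1.641 to 2.291 CPM to 2.444 to 3.757 CPM, and Pla2g5 (chr4:138799244-138863482) fell by 0.79 (± 0.143, adjusted p = 0.00384), from a median of 8.64 to 5.007 CPM. Pla2g4a had no overlap between the arms, and Pla2g5 overlapped only between WT NS replicate 1 and WT TAC replicate 3. The prostaglandin D synthase Ptgds rose by 0.61 ± 0.133 (in 7 of 12 fits).

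The cysteinyl leukotriene receptor Cysltr1 rose by 0.95 ± 0.265 (adjusted p = 0.0414) at under 1 CPM, in 3 of 12 fits. The 5-lipoxygenase activating protein gene Alox5ap changed by -0.30 ± 0.145 (adjusted p = 0.262), and Lta4h by 0.10 ± 0.0662. Runx2, named in the series title, did not reach 10 counts in 3 libraries and was not tested, and Runx1 changed by 0.44 ± 0.286 (adjusted p = 0.447). Of 20 genes of the Runx family and its textbook targets 8 were tested and 2 rose (25% of those tested, against 5.19% of all genes). These were Spp1 and Tnfrsf11b (1.54 ± 0.352, medians of 0.201 and 0.4972 CPM, called in the 9 of 12 fits in which it passed the count filter). Without WT TAC 1 and Alox5ko TAC 2 the count was 1. Both genes passed the count filter only through TAC libraries, with at most 0.2593 CPM of Spp1 and 0.3458 CPM of Tnfrsf11b in NS. The filter thus favoured rises here, and the share is not support for a Runx response.

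Other lists gave few calls, and their shares are to be set against the 5.19% of all genes tested. Unfolded protein and heat shock genes had 1 rise, Hspb6 at 0.64 ± 0.128, and 1 fall, the mitochondrial chaperone Hspd1 by 0.26 (± 0.0613), among 41 (4.88%). Some related stress genes are not in this list and rose, so its count depends on how it was drawn. Ddit3 rose by 0.41 ± 0.0879 (adjusted p = 0.0101) and Cryab by 0.27 ± 0.065 (adjusted p = 0.0203), both in all 12 fits that leave out 1 library. Hspb7, described above, is another. Cell cycle genes had 1 fall among 45 (2.22%): Cenpf, a kinetochore protein, fell by 1.13 (± 0.219, adjusted p = 0.0171), while Mki67 changed by 0.49 ± 0.322 (adjusted p = 0.473). Of 25 immediate early genes only Ier2 was called (4%), rising by 0.55 ± 0.129, and Egr1 changed by 1.37 ± 0.495 (adjusted p = 0.168). Clock genes had 2 rises and 1 fall among 21 (14.3%), with Nr1d2 falling by 0.65 (± 0.13) and Nfil3 rising by 0.41 ± 0.091. None of 46 cytosolic ribosomal protein genes was called (0%), with changes between -0.15 and 0.15 (log2).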

How the data were processed

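Messenger RNA of left ventricles was sequenced in 12 libraries. The authors deposited raw read counts per gene and RPKM values, and the submitters' processing notes name HISAT2, DESeq2 and the builds mm10 and GRCh38, with no versions or roles. The deposited RPKM values equalled values recomputed from the counts and the lengths in the table within 0.1% in 336540 of 336540 cases, and they served only for shares of paired genes. The table's symbols were matched to GENCODE M21 for annotation: 47209 of 49492 lay on the same chromosome. Another 26 symbols are written as dates and were not named.

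Counts were fitted in edgeR 4.0.16 (R 4.3.3) with TMM scaling, genotype and treatment as additive terms, and a robust quasi-likelihood F test. Genes with 10 or more counts in at least 3 libraries were kept, and p-values were adjusted by Benjamini-Hochberg over all genes tested (called under 0.05). The interaction came from a model with 1 term per group. The code was tested on simulated data. No 2 libraries of a group agreed within sampling noise.

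The comparison and the gene and marker lists were chosen with earlier results of these data known, so the lists are described by counts and medians with no set test. Named genes are Alox5, Alox5ap, Runx1 and Runx2, the 12 highest and 12 lowest changes and 10 smallest p-values among called genes of mean log2 CPM 1 or more, the 5 most abundant in each direction, up to 6 called and 3 other members of each list, and the 5 smallest interaction p-values. Others, among them Nppb, Pi16, Myh7, Nebl and Bmp7, were named after their values were seen. Alternatives were DESeq2 1.42.0, limma-voom (limma 3.58.1), other scalings and filters, a replicate block, each genotype alone and each library left out. Some called members of the lists are counted but not reported here by name.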

Additional observations from a re-analysis of the deposited data

Results flagged for a closer look

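Among 37 measures, the highest or lowest library of the 6 in an arm stood apart from the other libraries of that arm in 6 of 74 groups examined, by Dixon's test at the 95% level. Chance gives about 1 in 20 groups. WT NS replicate 2 was such a library in 3 measures. Its summed natriuretic and fetal stress genes reached 16770 CPM where the next NS library had 14080, its Acta1 312.6 CPM against 176.2, and its Ankrd1 2622 CPM against 1630. Among TAC libraries, WT TAC replicate 1 had 1994 CPM of matricellular and fibrosis genes, with the next at 1302. Alox5ko NS replicate 3 held 146400 CPM of cardiomyocyte markers, with the next lowest NS library, WT NS replicate 1, at 167800. The TMM factors of these 2 libraries were 0.9457 and 1.033, so that gap would be smaller with TMM scaling. The flags of summed levels were found without TMM factors and were not repeated with them, so they may depend on the scaling. Alox5ko NS replicate 1 had 4.596 CPM of Tgfb2, with the next lowest at 5.203.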

How the results depend on the processing

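The 816 calls became 818 with DESeq2's size factors, 1053 with DESeq2, 727 with limma-voom, 813 without mitochondrial genes and 1428 with no filter on low counts (28070 genes). An adjusted p under 0.01 left 248. Leaving out 1 library gave 454 (without WT NS 3) to 889 (without Alox5ko TAC 2), and 485 each without WT TAC 1 or Alox5ko TAC 3. WT libraries alone gave 217 calls and Alox5ko libraries alone 161, with fewer samples. Of 165 named genes called, 99 were called in all 12 fits that leave out 1 library, and none changed sign.

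The difference between genotypes gave 0 or 1 call with 1 library left out, 1 with DESeq2, limma-voom or without WT TAC 1 and Alox5ko TAC 2, and 83 with no filter. With a replicate block, 753 genes were called for TAC (689 of the 816) and 1, Errfi1, for the difference. No clear pairing by replicate number was seen: same-numbered deviations correlated at -0.122 to 0.0837, and 5 of 12 libraries correlated best with their own number. With 3 libraries a group this check cannot exclude a pairing.

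Uncalled or mixed values that changed sign were Alox5 (-0.1284 to 0.03173 with 1 library left out, 0.00332 being the value without WT NS 3, -0.1291 without WT TAC 1 and Alox5ko TAC 2, and 0.03279 in Alox5ko libraries alone), Hist2h2aa1 (-0.04877) and Runx1 (-0.122) in WT libraries alone, and the medians of the unfolded protein list (-0.125 in WT libraries alone) and the clock list (0.117 in Alox5ko libraries alone). The cause was not tested.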

Other observations

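Several called genes belong to none of the groups described so far. Itgbl1, an integrin-like matrix protein (chr14:123659971-123975618), ran from 6.464 to 10.33 CPM in NS and from 14.19 to 19.86 CPM in TAC libraries, with no overlap. It rose by 0.98 ± 0.11 (adjusted p = 9.24e-05). Golga4, a golgin of the trans-Golgi, rose by 0.39 ± 0.0525 (adjusted p = 0.000428), from 1430 to 1801 CPM in NS to 1929 to 2368 CPM in TAC libraries. Dio2, the deiodinase that activates thyroid hormone, rose by 1.71 ± 0.331 (adjusted p = 0.0117) at a low level, with medians of 0.9109 and 3.029 CPM. The lowest TAC value of Dio2, at 1.554 CPM, met the highest NS value of 1.556 CPM.

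Antioxidant genes went in both directions, with 3 rises and 1 fall among 32 tested (12.5%). Gpx1, a glutathione peroxidase, rose by 0.31, the extracellular superoxide dismutase Sod3 by 0.40 and the quinone reductase Nqo1 by 0.26 on the log2 scale. Sod2, the mitochondrial superoxide dismutase, fell by 0.20 on the log2 scale. Nqo1 was called in all 12 fits that leave out 1 library, Sod3 in 10, Gpx1 in 9 and Sod2 in 6. The list gave 2 to 4 calls with single libraries left out, and 1 without WT TAC replicate 1 and Alox5ko TAC replicate 2.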
